A study of Homo sapiens with 60 samples.

Results

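The transcripts described here encode the transcription factor NRF2 (gene NFE2L2), its relative NRF1 (NFE2L1), and 7 proteins that act around NRF2: KEAP1 and CUL3 of the ligase that marks it for destruction, SQSTM1 (p62), which binds KEAP1, the competing repressor BACH1, and the DNA-binding partners MAFG, MAFF and MAFK. They were chosen by name, as the rows of the deposited count table whose Ensembl identifiers carry these symbols. The choice was made with earlier results of these data known. All 9 were found among the table's 60675 identifiers, and all 9 passed the filter on low counts that left 17049 genes for testing. RNA came from HT29, an established cell line grown from a human colorectal adenocarcinoma, after 24 h of culture with a hot-water herbal extract or with DMSO as vehicle. Of the 7 extracts, 2 were of single herbs (Menthae Herba and Saposhnikoviae Radix) and 5 were of formulas that combine several herbs (Guibi-tang, Okbyeongpung-san, Saengmaek-san, Soshiho-tang and Soyo-san). Every extract was given at 500 µg/mL, here called the high dose, at 100 µg/mL (medium) and at 20 µg/mL (low). Vehicle and each dose of 6 extracts had 3 libraries, and Soshiho-tang had 1 library per dose and enters no test. The sample labels give the vehicle as 0.1% DMSO and the design text as 2% DMSO, and whether the extract wells also held DMSO is not in the labels used here. Nothing in the labels says that replicates were separate cultures, so the p-values rest on a spread between libraries that may be technical. In RNA of whole cultures, fewer cells of a kind and less RNA per cell cannot be told apart.

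NRF2 is a stress-responsive activator that cells make continuously and destroy continuously. KEAP1 holds it in the cytoplasm as the substrate adaptor of a ubiquitin ligase built on CUL3, and oxidants or electrophiles that modify KEAP1 let NRF2 accumulate, so that much of its control lies in protein turnover and not in the amount of its transcript. Stabilised NRF2 pairs with a small MAF protein (MAFG, MAFF or MAFK) on antioxidant response elements (AREs), from which BACH1, a repressor that also pairs with small MAFs, is displaced. SQSTM1, an autophagy receptor, binds KEAP1 and draws it into autophagy, and the genes of SQSTM1 and of several small MAFs are known NRF2 targets themselves. NRF1 is made at the endoplasmic reticulum and, once processed, drives proteasome subunit genes. RNA sequencing sees the transcripts of these genes and not the proteins, their modification or their place in the cell.

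Some of these genes carry short matches to the DNA motifs through which NRF2 and BACH1 act. These stretches are shown as sequence, and whether either protein reads them was not tested. RefSeq promoter windows (GRCh38.p14, 250 bases before to 50 after a start) were at hand for 8 of the 9 genes, 17 windows in all, with none for MAFK. Searched on both strands, the ARE core TGACNNNGC was in 2 of the 17 windows, 1 of KEAP1 and 1 of MAFF, against 13.3% of 35116 windows of all genes. The AP-1 site TGANTCA, which overlaps the longer element that BACH1 and small MAFs bind, was in 1 of the 17 windows, that of BACH1, against 7.71% of all windows. Neither motif was thus more frequent in the windows of these genes than in those of all genes. Sequence outside the windows was not searched. The 27 windows of the NRF2 targets listed further on held the ARE core in 7 cases and the AP-1 site in 3. Each match is printed with 6 flanking bases, 5′ to 3′ on the strand of its gene and in capitals at the motif. It is a description of the sequence and not a site shown to be bound.
KEAP1, 54 to 46 bases before the start, motif on the gene's strand, chr19:10502811-10502831 (minus strand): ttattgTGACACGGCgggcgc
KEAP1, 31 to 23 bases before the same start, motif on the opposite strand, chr19:10502788-10502808 (minus strand): ggctctGCTTAGTCAtggtga
MAFF, 122 to 114 bases before the start, motif on the opposite strand, chr22:38201866-38201886 (plus strand): caggggGCGGGGTCAtacggg
BACH1, 48 to 42 bases before the start, motif on both strands, chr21:29298868-29298886 (plus strand): aaggagTGAGTCAcctgac

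By the GENCODE 29 annotation of GRCh38, which may not be the release behind the counts, all 9 are protein-coding. NFE2L2 (ENSG00000116044, chr2:177227595-177392697) and CUL3 (ENSG00000036257, chr2:224470150-224585397) lie on chromosome 2 on the minus strand, and KEAP1 (ENSG00000079999, chr19:10486120-10503741) on the minus strand of chromosome 19. NFE2L1 (ENSG00000082641, chr17:48048329-48061487, plus) and MAFG (ENSG00000197063, chr17:81918270-81927714, minus) share chromosome 17. BACH1 (ENSG00000156273) spans chr21:29194071-29630751, MAFF (ENSG00000185022) chr22:38200767-38216511, MAFK (ENSG00000198517) chr7:1530714-1543043 and SQSTM1 (ENSG00000161011) chr5:179806398-179838078, all on the plus strand. Exons of other genes overlap some of them. TMEM184A covers 18.1% of the exon bases of MAFK on the opposite strand, MRNIP covers 20.7% of those of SQSTM1 on the opposite strand, and AC019080.1 covers 17.6% of those of NFE2L2 on the same strand. The strand setting of the counting is not given in the sources used here, so reads of such pairs could not be told apart.

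A library held 19.5 to 41.9 × 1e6 counts (median 29.2 × 1e6). The 8 colon epithelial markers (EPCAM, CDX2, CDH1, VIL1, KRT8, KRT18, KRT20 and LGALS4) together took 10700 to 14600 counts per 1e6 (CPM, scaled by TMM) in every library, with 11100 to 11700 in vehicle. CDX2 was low, at 2.93 to 5.00 CPM. The 9 markers of other cell types together took 4.42 to 7.26 CPM, of which CD14 had the most (1.69 to 4.13 CPM), and the medians of CD3E, COL1A2, DCN and ALB over all libraries were 0. The part of either list in the results was not tested. On the first principal component of all genes the libraries parted by the numbering of their names, with 31 on the side of the lower numbers (called earlier-numbered here) and 29 on the other (later-numbered). Vehicle, whose library names carry a separate prefix, fell on the earlier side with both single herbs, whereas every library of Soyo-san, Okbyeongpung-san and Soshiho-tang fell on the later side. Only the libraries of Guibi-tang and Saengmaek-san were divided between the sides, so an added term for the side, called the order term here, takes its estimate from those 2 formulas.

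In vehicle-treated cells the transcripts of NFE2L1 and SQSTM1 were the most abundant of the 9 per exon length. That length joins all annotated exons of a gene, whether or not these cells use them, so the ranking depends on the annotation. NFE2L1 averaged 46.5 ± 0.295 CPM per kilobase of exon (mean ± SD, n = 3) and SQSTM1 43.4 ± 0.862. NFE2L2 stood lower, at 19.9 ± 0.956 on the same scale, followed by MAFG at 16.5 ± 0.576, KEAP1 at 14.6 ± 0.753, MAFK at 11.5 ± 0.319 and CUL3 at 9.23 ± 0.269. The repressor BACH1 (4.41 ± 0.444) and MAFF (2.52 ± 0.0341) were the least abundant. Among the small MAFs, MAFG and MAFK transcripts thus stood well above MAFF in these cells.

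Against vehicle, KEAP1 and SQSTM1 were the members most often called higher in the fit without a term for library order (with it BACH1 was, in 12 comparisons against 7 each), and the transcript of NRF2 itself passed no test. Of 162 pairs of a gene and a comparison with vehicle, 30 passed the test (edgeR's quasi-likelihood test, Benjamini-Hochberg adjusted p under 0.05 over 17049 genes), and all 30 were higher, where 2.06% of all gene tests over the 18 comparisons were higher. KEAP1 was higher in 10 of the 18 comparisons, SQSTM1 in 9, BACH1 in 5, MAFK in 3, CUL3 in 2 and MAFG in 1. NFE2L2, NFE2L1 and MAFF were called in none by this test or by DESeq2, and at an unadjusted p under 0.05 in 1, 3 and 2 comparisons. How many of all genes had such an unadjusted p was not counted in any comparison. The 18 comparisons share the same 3 vehicle libraries, so a vehicle library that is low for a gene enters each of them. Because the members were chosen with earlier results of these data known, their count beside the share of all genes is a description only.

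**Figure D1:**
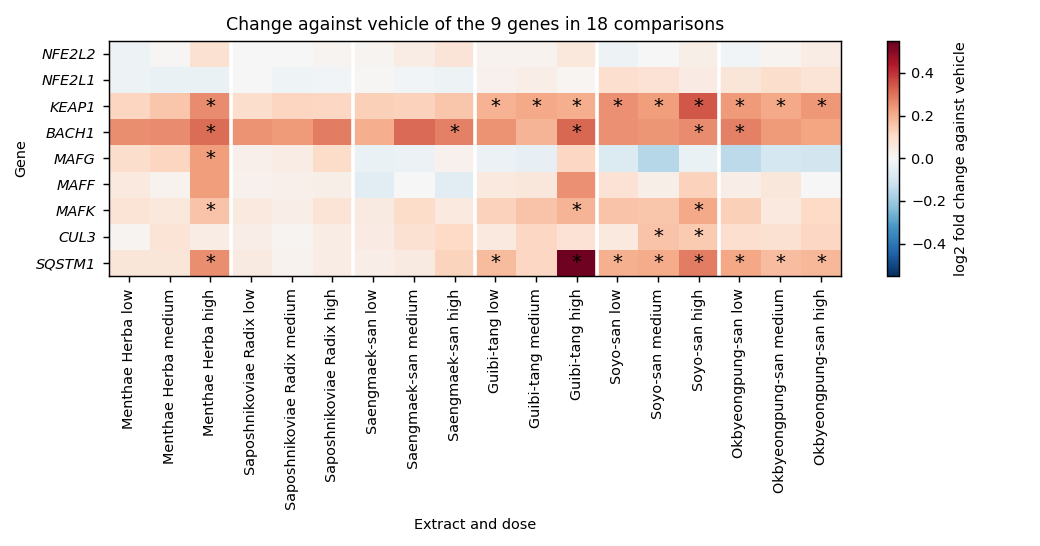
Log2 fold change against vehicle (colour) of each of the 9 genes (rows) under each extract and dose (columns), with asterisks where edgeR's adjusted p was under 0.05. KEAP1 has asterisks in 10 columns and SQSTM1 in 9, while the NFE2L2, NFE2L1 and MAFF rows have none.

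By extract, Soyo-san and Menthae Herba at the high dose had the most members higher. Soyo-san had 5 of 9 at the high dose, where 8.03% of all genes tested were higher, 3 at the medium (5.57%) and 2 at the low dose (2.04%). Menthae Herba had 5 of 9 at the high dose (4.59% of all genes) and 0 at the medium (0.334%) and low (0.0117%) doses. Guibi-tang had 4 at the high dose (1.28%), 1 at the medium (0.575%) and 2 at the low dose (0.504%). The 4 of Guibi-tang became 1 or 2 when any 1 of the 6 libraries (vehicle or Guibi-tang replicate 1, 2 or 3) was left out, 2 with no filter on low counts and 1 in a fit of the 2 groups alone. Okbyeongpung-san had 2 at the high dose (4.36%), 2 at the medium (2.17%) and 3 at the low dose (4.74%). Saengmaek-san had 1 at the high dose (2.39%) and 0 at the medium (0.164%) and low (0.0352%) doses. Saposhnikoviae Radix had 0 at the high (0.293%), medium (0.0117%) and low (0.0645%) doses. In these 7 comparisons with 0, edgeR gave 1 or 2 members an unadjusted p under 0.05, and DESeq2 called 1 member for Saengmaek-san at the medium dose and 0 in the others. The median log2 change over the 9 members ran from 0.026 under Saposhnikoviae Radix at the medium dose to 0.230 under Menthae Herba at the high dose, and that of all genes tested from -0.004 to 0.009.

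NFE2L2, the transcript of NRF2, stayed within a narrow band. It measured 112.4, 121.8 and 122.8 CPM in the vehicle libraries, and its group means ran from 116.6 CPM (Soyo-san, low dose) to 126.2 CPM (Menthae Herba, high dose), a ratio of 1.08. The log2 changes against vehicle lay between -0.03 and 0.08, and the smallest adjusted p was 0.209. That value belonged to Menthae Herba at the high dose, whose libraries measured 128.2, 126.8 and 123.6 CPM. All 3 lay above the vehicle libraries, by less than 1 CPM for the lowest of them, and the change was 0.08 ± 0.04 (log2 ± SE). A p that misses the threshold does not show an equal level.

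NFE2L1, the transcript of NRF1, had vehicle values of 272.4, 268.9 and 270.8 CPM and group means from 263.8 CPM (Menthae Herba, medium dose) to 289.3 CPM (Okbyeongpung-san, medium dose), a ratio of 1.10. Its log2 changes against vehicle ran from -0.04 to 0.10, with a smallest adjusted p of 0.143. In 4 comparisons every treated library lay above every vehicle library and in 1, Menthae Herba at the high dose (261.9, 264.6 and 266.3 CPM), every one lay below. How many of all genes parted from vehicle in this way was not counted. The higher NFE2L1 means were those of Soyo-san and Okbyeongpung-san, whose libraries are all later-numbered. With treatment allowed for, NFE2L1 differed between later- and earlier-numbered libraries by 0.04 ± 0.02 (adjusted p = 0.251), and within Saengmaek-san and Guibi-tang its medians were 275.8 CPM in the later and 268.1 CPM in the earlier libraries.

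**Figure D2:**
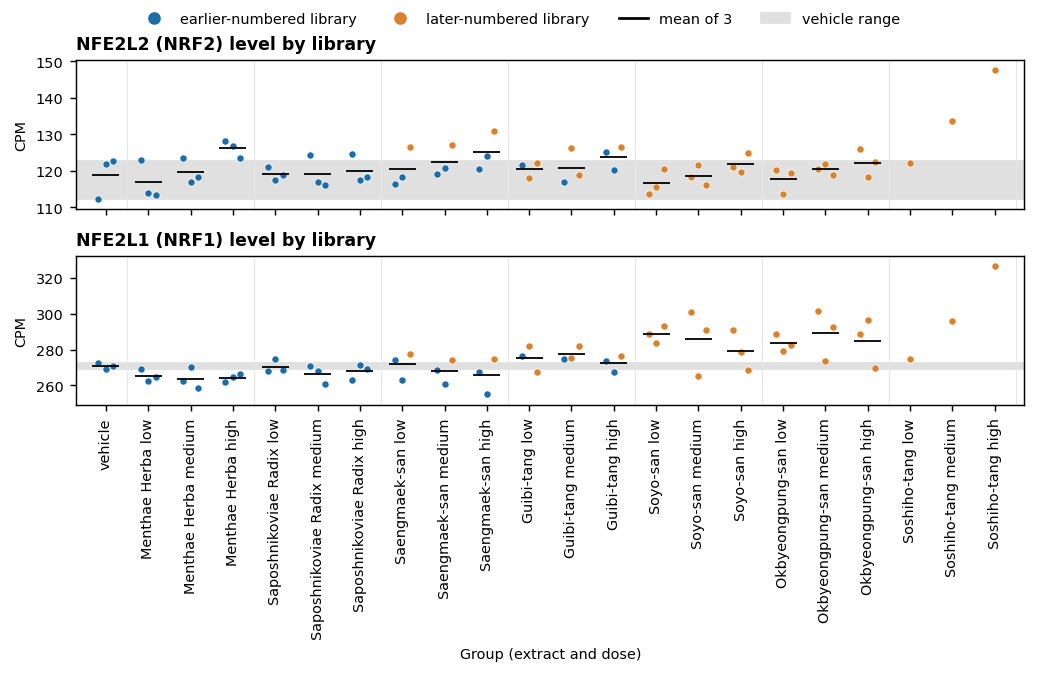
CPM of NFE2L2 (top) and NFE2L1 (bottom) in each of the 60 libraries by extract and dose, with the mean of 3 as a line and the vehicle range as a grey band. The vertical axes do not start at 0. Most NFE2L2 points fall in or next to the vehicle band of 112.4 to 122.8 CPM, and the single high-dose Soshiho-tang library lies above all others in both panels.

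KEAP1, the adaptor that delivers NRF2 to its ligase, was higher than vehicle under 4 extracts. The vehicle libraries measured 57.77, 52.11 and 54.80 CPM and had the lowest mean of the 19 groups, 54.9 ± 2.83 CPM (SD, n = 3). Under Soyo-san at the high dose the 3 libraries measured 73.20, 67.62 and 67.46 CPM, all above every vehicle library. The change was 0.34 ± 0.05 on the log2 scale (edgeR, adjusted p = 2.79e-06), the largest KEAP1 change of the 18.

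Menthae Herba at the high dose gave KEAP1 values of 68.55, 65.52 and 62.95 CPM, again all above vehicle, and a change of 0.26 ± 0.05 (adjusted p = 2.21e-04). Its medium and low doses (0.15 and 0.12) did not pass. Soyo-san at the medium and low doses (0.23 and 0.25) and Okbyeongpung-san at the high, medium and low doses (0.24, 0.21 and 0.23) were also higher. Guibi-tang was higher by 0.20, 0.21 and 0.19 at the high, medium and low doses, values that lie within 0.02 of each other. The high against the low dose gave KEAP1 differences of 0.0094 ± 0.0488 (log2 ± SE) for Guibi-tang and 0.0037 for Okbyeongpung-san, neither of which passed.

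How far single libraries carried these KEAP1 calls differed. The calls for Menthae Herba at the high dose, Soyo-san at all 3 doses and Okbyeongpung-san at the high and low doses kept an adjusted p under 0.05 when any 1 of their 6 libraries was left out. The Guibi-tang calls did not: without vehicle replicate 2, which had the lowest KEAP1 of all 60 libraries, the adjusted p was 0.112 at the high, 0.135 at the medium and 0.225 at the low dose. Without vehicle replicate 3 it was 0.0553, 0.0817 and 0.13. Of the Guibi-tang libraries, leaving out high-dose replicate 2 or 3 gave 0.0524 and 0.115, medium-dose replicate 2 or 3 gave 0.14 and 0.0997, and low-dose replicate 2 or 3 gave 0.339 and 0.0904. The call for Okbyeongpung-san at the medium dose was lost without vehicle replicate 2 (0.0818) or its own replicate 1 (0.117). A fit of only the 2 groups compared gave KEAP1 an adjusted p of 0.0951, 0.158 and 0.275 for the 3 doses of Guibi-tang and 0.0698 for Okbyeongpung-san at the medium dose, and with no filter on low counts it was 0.0575 for Guibi-tang at the high and 0.0644 at the low dose.

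CUL3, the scaffold of that ligase, measured 102.6, 108.5 and 107.2 CPM in vehicle. Among the 6 tested extracts it passed the test under Soyo-san alone, at the high dose (123.0, 118.3 and 110.5 CPM; 0.14 ± 0.05, adjusted p = 0.034) and the medium dose (118.5, 120.1 and 116.4 CPM; 0.16 ± 0.05, adjusted p = 0.0281). All 6 of these libraries lay above the vehicle libraries. Both calls were lost with the order term (0.07 and 0.08, adjusted p = 0.482 and 0.445), with no filter on low counts (adjusted p = 0.169 and 0.124), and without vehicle replicate 1 (0.16 and 0.141) or 3 (0.0657 for each). They were also lost without Soyo-san replicate 1 (0.239 at the high and 0.0842 at the medium dose) or 2 (0.121 and 0.113). CUL3 also lay above every vehicle library under Guibi-tang at the high and medium doses (log2 changes of 0.08 and 0.11). The same held for Okbyeongpung-san at the high and low doses (0.11 and 0.09), and none of these passed.

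SQSTM1, the autophagy receptor that binds KEAP1, had the largest change of the 9 genes. It measured 339.7, 326.8 and 330.7 CPM in vehicle and 455.2, 500.4 and 487.9 CPM under Guibi-tang at the high dose. The highest vehicle library and the lowest treated library were more than 100 CPM apart, and the change was 0.53 ± 0.04 (log2 ± SE, edgeR, adjusted p = 1.99e-15). In the earlier-numbered libraries alone, which hold vehicle and 2 of these 3 libraries, it was 0.53 ± 0.04 (adjusted p = 1.65e-11).

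Under Soyo-san at the high dose SQSTM1 measured 418.8, 397.9 and 393.3 CPM, a change of 0.28 ± 0.04 (adjusted p = 1.31e-06). Under Menthae Herba at the high dose it measured 400.2, 398.4 and 391.5 CPM, a change of 0.26 ± 0.04 (adjusted p = 4.92e-06). All 6 libraries lay above the vehicle libraries. Okbyeongpung-san was higher at each dose, with high-dose values of 379.7, 374.3 and 378.2 CPM and changes of 0.18, 0.17 and 0.21 at the high, medium and low doses. Soyo-san was higher by 0.20 at both its medium and low doses.

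Guibi-tang at the low dose, with SQSTM1 at 370.5, 390.8 and 364.5 CPM, was higher by 0.18 ± 0.04 (adjusted p = 0.00976), a call that was lost without vehicle replicate 2 (0.0826), vehicle replicate 3 (0.0629) or its own replicate 2 (0.184), in a fit of these 2 groups alone (0.231) and with no filter on low counts (0.0561). The call for Okbyeongpung-san at the medium dose was lost without its replicate 1 (0.102), in a fit of those 2 groups alone (0.0798) and with no filter on low counts (0.0682). The other 7 SQSTM1 calls against vehicle kept an adjusted p under 0.05 without any 1 of their libraries. Saengmaek-san at the high dose (368.3, 345.6 and 370.3 CPM; 0.12 ± 0.04, adjusted p = 0.0574) did not pass, and its libraries all lay above vehicle. Saposhnikoviae Radix at the high dose (347.8, 337.9 and 338.9 CPM; 0.04 ± 0.04) overlapped vehicle.

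**Figure D3:**
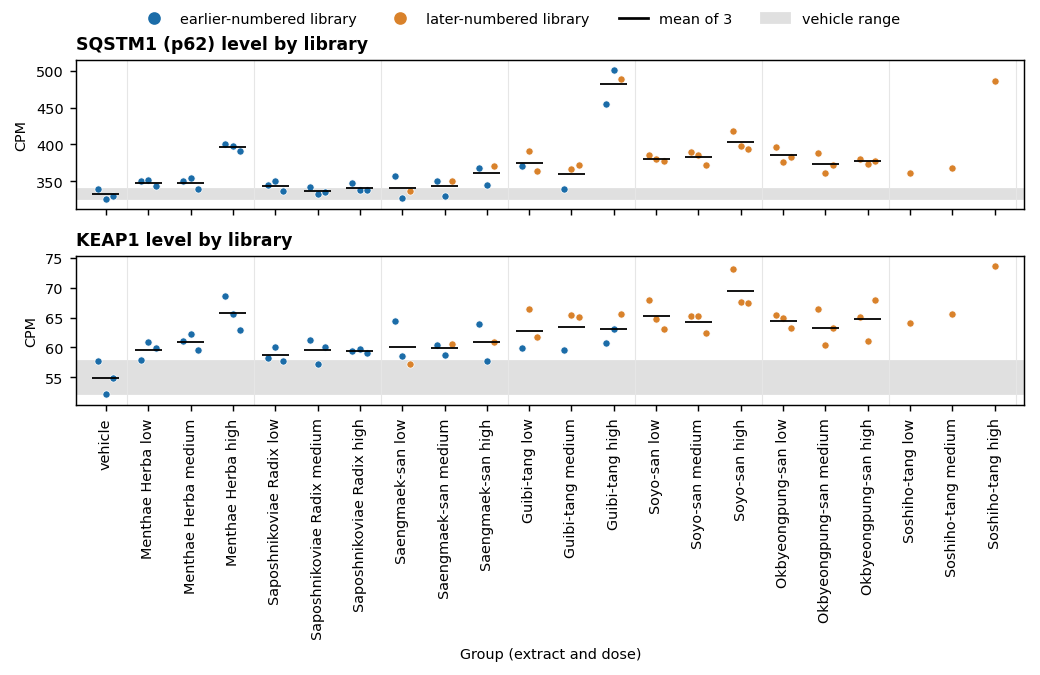
CPM of SQSTM1 (top) and KEAP1 (bottom) in each of the 60 libraries by extract and dose, coloured by part of the library numbering, with the mean of 3 as a line and the vehicle range as a grey band. The vertical axes do not start at 0. SQSTM1 stands at 455.2 to 500.4 CPM in the 3 high-dose Guibi-tang libraries, and vehicle has the lowest group mean in both panels.

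BACH1, the repressor that competes with NRF2 at AREs, was higher in 5 comparisons by similar amounts. Vehicle measured 30.25, 34.96 and 36.91 CPM, the first of which was the lowest BACH1 value of all 60 libraries. Under Guibi-tang at the high dose BACH1 measured 41.98, 44.70 and 40.35 CPM (0.32 ± 0.08, adjusted p = 0.03), and under Menthae Herba at the high dose 44.55, 43.03 and 38.88 CPM (0.31 ± 0.08, adjusted p = 0.0148). Both groups lay above every vehicle library.

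Of the other 3 BACH1 calls, the first was that of Saengmaek-san at the high dose (43.87, 43.38 and 36.10 CPM; 0.28, adjusted p = 0.0473), whose replicate 3 fell inside the vehicle range. Okbyeongpung-san at the low dose (43.32, 40.06 and 40.62 CPM; 0.28, adjusted p = 0.034) and Soyo-san at the high dose (38.89, 42.0 and 41.5 CPM; 0.26, adjusted p = 0.0356) lay above every vehicle library. The 18 changes of BACH1 ran from 0.19 to 0.32, all had an unadjusted p under 0.05, and in 15 of them every treated library lay above every vehicle library. The 18 share the same 3 vehicle libraries and are not separate observations. How many of all genes had such counts was not determined. Vehicle replicate 1 bears on each of the 18 changes. Without it all 5 calls were lost, with adjusted p of 0.139 for Menthae Herba, 0.315 for Saengmaek-san, 0.237 for Guibi-tang, 0.231 for Soyo-san and 0.226 for Okbyeongpung-san, and with changes of 0.18 to 0.24. Leaving out vehicle replicate 2 gave Saengmaek-san 0.0837, Guibi-tang 0.0665, Soyo-san 0.061 and Okbyeongpung-san 0.0602.

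Single treated libraries also ended the BACH1 calls: replicates 1 or 2 of Menthae Herba (adjusted p = 0.0985 and 0.0673), of Saengmaek-san (0.157 and 0.229) and of Guibi-tang (0.0734 and 0.147), and each of the 3 of Soyo-san (0.0624, 0.135 and 0.0861) and of Okbyeongpung-san (0.137, 0.0566 and 0.0924). In a fit of the 2 groups alone BACH1 had an adjusted p of 0.227 for Saengmaek-san and 0.0519 for Guibi-tang. DESeq2's size factors gave 0.0591 for Saengmaek-san.

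The small MAF proteins are the DNA-binding partners of both NRF2 and BACH1. MAFK was higher under Soyo-san (60.13, 57.82 and 60.11 CPM against 53.00, 51.11 and 50.21 in vehicle; 0.21 ± 0.05, adjusted p = 0.00638), Guibi-tang (60.33, 58.49 and 56.55 CPM; 0.19 ± 0.05, adjusted p = 0.0453) and Menthae Herba (61.22, 57.84 and 53.01 CPM; 0.16 ± 0.05, adjusted p = 0.0492), each at the high dose. The lowest Menthae Herba library was level with the highest vehicle library to within 0.1 CPM. The Soyo-san call for MAFK kept an adjusted p under 0.05 without any 1 of its 6 libraries. The Guibi-tang call was lost without any 1 of its 6 libraries (adjusted p = 0.0716 to 0.18, lost with vehicle replicates 1, 2 and 3 and with high-dose replicates 1, 2 and 3 left out in turn). The Menthae Herba call was lost without vehicle replicate 1 (0.0692), 2 (0.141) or 3 (0.176) or high-dose replicate 1 (0.327) or 2 (0.153). DESeq2's size factors (0.0556 for Menthae Herba, 0.0554 for Guibi-tang) and no filter on low counts (0.103 and 0.116) also moved both past the threshold, as did a fit of the 2 groups alone for Guibi-tang (0.1).

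MAFG passed the test against vehicle under Menthae Herba at the high dose alone. Its libraries there measured 103.4, 104.6 and 96.06 CPM against 86.40, 83.32 and 89.33 CPM in vehicle, with no overlap. The change was 0.23 ± 0.07 (adjusted p = 0.0218), and 0.23 ± 0.04 (adjusted p = 6.72e-05) in the earlier-numbered libraries alone, where both groups lie. The call was lost without vehicle replicate 1 (0.0676) or 2 (0.113) or Menthae Herba replicate 1 (0.0931) or 2 (0.111). Every treated library also lay above every vehicle library under Menthae Herba at the medium and low doses (0.12 and 0.09). The same held for Saposhnikoviae Radix at the high dose (0.10), and none of these passed. Under Soyo-san and Okbyeongpung-san the 6 changes were all below 0, from -0.16 to -0.04, and none passed.

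MAFF, the least abundant of the 9, measured 14.38, 14.01 and 14.13 CPM in vehicle. Its largest changes were 0.25 ± 0.08 under Guibi-tang at the high dose (19.07, 15.77 and 15.78 CPM; adjusted p = 0.103) and 0.23 ± 0.08 under Menthae Herba at the high dose (17.54, 16.87 and 15.41 CPM; adjusted p = 0.0745). Neither passed, though all 6 libraries lay above the 3 closely spaced vehicle libraries.

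**Figure D4:**
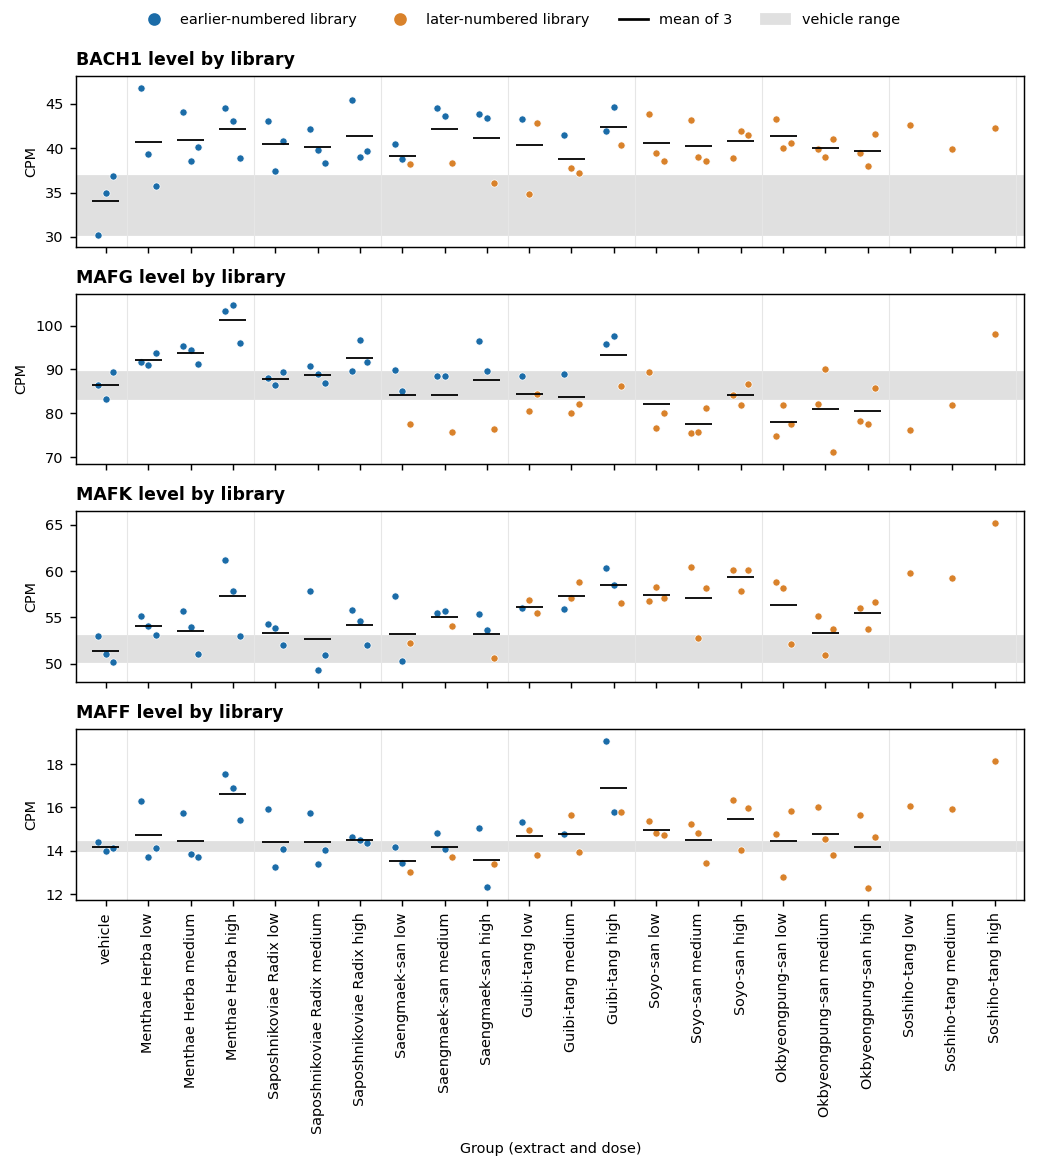
CPM of BACH1, MAFG, MAFK and MAFF in each of the 60 libraries by extract and dose, coloured by part of the library numbering, with the mean of 3 as a line and the vehicle range as a grey band. The vertical axes do not start at 0. The first vehicle library has the lowest BACH1 of all (30.25 CPM), and within Saengmaek-san and Guibi-tang the later-numbered MAFG points lie at 75.75 to 86.29 CPM.

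Dose was tested by setting the high against the low dose of each extract. SQSTM1 was the member that passed, in 2 of the 6 extracts. Under Guibi-tang its level was 0.36 ± 0.04 higher at the high dose than at the low (adjusted p = 2.61e-08), the smallest p of all 17049 genes there, where 0.211% of genes were higher. That call held without any 1 of the 6 libraries and was lost in a fit of the 2 groups alone (the same 0.36, adjusted p = 0.0847). At the medium dose of Guibi-tang SQSTM1 measured 340.2, 366.6 and 372.7 CPM, overlapping the low dose, and every high-dose library lay above both. Under Menthae Herba the difference between high and low dose was 0.19 ± 0.04 (adjusted p = 0.00136; 1.13% of genes higher), and the low-dose libraries (350.2, 351.5 and 343.6 CPM) did not overlap the high-dose ones.

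No member passed between the high and low doses of Saposhnikoviae Radix (0.0293% of genes higher), Saengmaek-san (0.0117%), Soyo-san (0.0880%) or Okbyeongpung-san (0.00587%) by edgeR or DESeq2, with 0, 1, 1 and 0 members at an unadjusted p under 0.05. KEAP1 under Soyo-san had a difference of 0.09 ± 0.05 and under Menthae Herba one of 0.14 ± 0.05 (adjusted p = 0.129). BACH1 differences between the doses ran from -0.06 (Okbyeongpung-san) to 0.08 (Saengmaek-san).

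Extracts were also compared directly at the high dose, where vehicle plays no part. SQSTM1 was 0.41 ± 0.04 higher under Guibi-tang than under Saengmaek-san (adjusted p = 2.6e-11; 0.328% of genes higher), 0.22 ± 0.04 higher under Menthae Herba than under Saposhnikoviae Radix (adjusted p = 4.37e-04; 0.493%), and 0.14 ± 0.04 higher under Okbyeongpung-san than under Saposhnikoviae Radix (adjusted p = 0.0258; 2.77%). In each of the 3 the libraries did not overlap. The Okbyeongpung-san difference compares later- with earlier-numbered libraries. It was lost with the order term (0.10, adjusted p = 0.725), with no filter on low counts (0.157), and without Saposhnikoviae Radix replicate 1 (0.0621), 2 (0.132) or 3 (0.0749) or Okbyeongpung-san replicate 1 (0.114) or 2 (0.0968). The Guibi-tang and Menthae Herba differences held without any 1 library.

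Same-numbered libraries of Guibi-tang and Saengmaek-san deviated together at the high dose, where in both groups replicates 1 and 2 were earlier-numbered and replicate 3 later-numbered. With the replicate number as a block a second member passed there, MAFF, 0.31 ± 0.07 higher under Guibi-tang (adjusted p = 0.00852, against 0.135 without the block). MAFF also passed there with no filter on low counts (0.02) and without Saengmaek-san replicate 1 (0.0449). MAFG was the single member that differed between Soyo-san and Menthae Herba, with a difference of -0.27 ± 0.07, lower under Soyo-san (adjusted p = 0.00858; 4.52% of genes were higher and 4.11% lower). With the order term this became -0.09 (adjusted p = 0.641), and without Menthae Herba replicate 2 the adjusted p was 0.0585. Soyo-san and Okbyeongpung-san differed in no member by edgeR (which called 0% of all genes) or DESeq2 (which called 2 genes), with 2 at an unadjusted p under 0.05. SQSTM1, 0.10 ± 0.04 higher under Soyo-san, had an adjusted p of 1.

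The part of the library numbering moved 4 of the 9 genes once treatment was allowed for, when 29.6% of all genes tested moved with it. In the later-numbered libraries the MAFG difference was -0.18 ± 0.03 (log2 ± SE, adjusted p = 1.73e-05) and that of BACH1 -0.16 ± 0.05 (adjusted p = 0.0102), both lower, while CUL3 was higher by 0.08 ± 0.03 (adjusted p = 0.0234) and NFE2L2 by 0.06 ± 0.02 (adjusted p = 0.0311). Within Saengmaek-san and Guibi-tang, MAFG ran from 85.03 to 97.58 CPM in the 10 earlier libraries and from 75.75 to 86.29 CPM in the 8 later ones. KEAP1 (0.04 ± 0.03) and SQSTM1 (0.04 ± 0.02) did not pass.

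Vehicle lies in the earlier part, so treatment and library order cannot be told apart for Soyo-san and Okbyeongpung-san other than through this term. With it KEAP1 was higher in 7 of the 18 comparisons with vehicle in place of 10, SQSTM1 in 7 in place of 9 and CUL3 in 0 in place of 2, while BACH1 was higher in 12 in place of 5. Over the 18 comparisons the members' calls with the term numbered 30 of 162, all higher, where 1.60% of all gene tests were higher. As without the term, this count is a description only. The KEAP1 calls lost were Guibi-tang at the medium (adjusted p = 0.0838) and low dose (0.0984) and Okbyeongpung-san at the medium dose (0.0972), and the SQSTM1 calls lost were Okbyeongpung-san at the high (0.0555) and medium dose (0.0929).

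BACH1 with the order term was higher by 0.40 to 0.43 at all 3 doses of Soyo-san and the low dose of Okbyeongpung-san and by 0.37 and 0.39 at the high and medium doses of Okbyeongpung-san. Saposhnikoviae Radix at the high dose also passed for BACH1 (0.28, adjusted p = 0.0466), with the same fold as without the term and an SE of 0.075 in place of 0.0833. The other BACH1 values past the threshold were 0.31 for Menthae Herba at the high dose, 0.32 and 0.36 for Saengmaek-san at the high and medium doses, and 0.36 and 0.35 for Guibi-tang at the high and low doses. MAFG changes against vehicle, which were below 0 in 10 of the 18 comparisons without the term, ran from 0.02 to 0.23 with it, and Menthae Herba at the high dose was the single MAFG call either way. These gains still rest on the same 3 vehicle libraries.

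**Figure D5:**
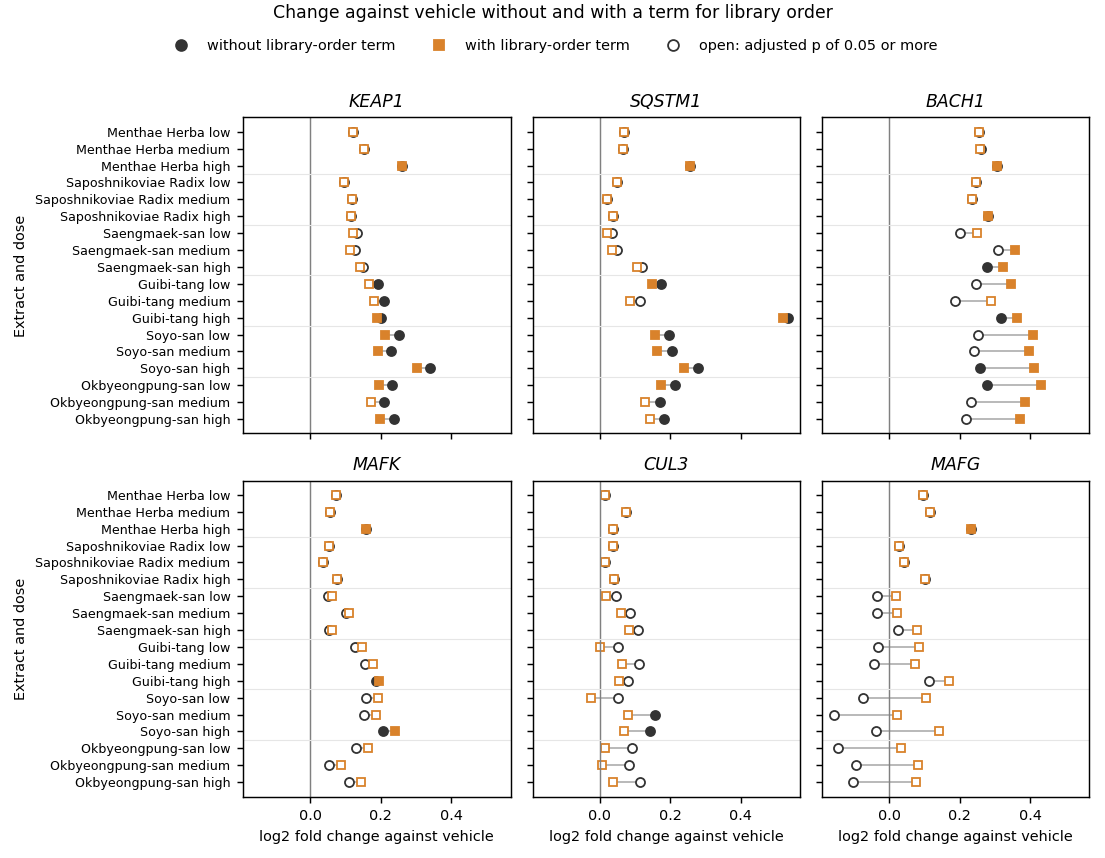
Log2 fold change against vehicle of 6 genes under each extract and dose, without (circles) and with (squares) the term for library order, filled where edgeR's adjusted p was under 0.05. For Soyo-san and Okbyeongpung-san the squares lie to the right of the circles for BACH1 and MAFG and to the left for CUL3, KEAP1 and SQSTM1.

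Across all 19 groups the order of levels put vehicle last for 5 of the 9 genes: KEAP1, BACH1, MAFK, CUL3 and SQSTM1. The share of all genes tested that had vehicle last was not counted. The 5 of 9 therefore cannot be read as particular to these genes. SQSTM1 spanned the widest range, from 332.4 CPM in vehicle to 481.1 CPM under Guibi-tang at the high dose, a ratio of 1.45. Next came Soyo-san at the high dose (403.3 ± 13.6 CPM, SD, n = 3) and Menthae Herba at the high dose (396.7 ± 4.61), which overlapped each other. Of its 18 pairs of neighbouring groups only 1, the step below Guibi-tang at the high dose, had libraries that did not overlap. KEAP1 ran from 54.9 to 69.4 CPM (ratio 1.26) with overlap between all neighbours, BACH1 from 34.0 to 42.4 CPM (1.24) with 1 pair of neighbours apart, and MAFG from 77.5 CPM under Soyo-san at the medium dose to 101.4 CPM under Menthae Herba at the high dose (1.31) with 2 pairs apart. MAFF (13.5 to 16.9 CPM), MAFK (51.4 to 59.4 CPM) and CUL3 (106.1 to 118.3 CPM) had no neighbours apart.

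The 9 genes did not move as a block over the 19 group means. The Pearson correlation of mean log2 CPM was 0.849 between KEAP1 and MAFK, 0.779 between MAFK and SQSTM1, 0.773 between MAFF and SQSTM1 and 0.682 between KEAP1 and SQSTM1. It was -0.81 between NFE2L1 and MAFG and between 0.224 and 0.4 for NFE2L2 with each of the other 7. The groups share the split by library numbering, so these are descriptions only. The correlation of NFE2L2 with NFE2L1 was -0.31.

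Among 10398 genes of at least 5 CPM, those most like SQSTM1 over the 19 groups were the interferon gamma receptor gene IFNGR1 (r = 0.863), the mitochondrial helicase gene TWNK (0.852) and the syndecan gene SDC4 (0.849). KEAP1 was most like DHX30 (0.93), the DNA methylation cofactor UHRF1 (0.925) and CD320 (0.92). BACH1 was most like ANKRD28 (0.858), RBM18 (0.856) and ARMT1 (0.844), MAFK like MRPS26 (0.882), AVPI1 (0.854) and KEAP1 (0.849), and CUL3 like MTREX (0.93), MRPS22 and SYNCRIP (0.914 each). Each is among the highest of 10398 values, over groups that share the split by library numbering. These likenesses are descriptions only, and shared regulation was not tested.

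Genes that NRF2 is known to drive were read as a list of 30, all of which were tested. The list was chosen with earlier results of these data known, so its counts are descriptions only. At the high dose 25 of 30 were higher under Menthae Herba (4.59% of all genes were), 18 under Guibi-tang (1.28%) and 18 under Soyo-san (8.03%). Under Soyo-san 2 were lower (6.43% of all genes were). Of the list 12 were higher under Saposhnikoviae Radix (0.293%), 12 under Saengmaek-san (2.39%) and 8 under Okbyeongpung-san (4.36%). The list's median log2 change was 0.36 for Menthae Herba, 0.27 for Soyo-san, 0.24 for Guibi-tang, 0.15 for Saengmaek-san and 0.14 for both Okbyeongpung-san and Saposhnikoviae Radix, beside -0.004 to 0.009 for all genes. With the order term 26, 19, 16, 13, 15 and 9 were higher in the same order and none was lower. For that term the share of all genes is given only pooled over the 18 comparisons (1.60% higher). In the fit without the order term 7 genes of the list passed under all 6 extracts at this dose, of which the 5 with the largest mean change are given. GCLC and GCLM, the subunits of the rate-limiting enzyme of glutathione synthesis, rose by 0.36 to 0.64 and by 0.34 to 0.97. The thioredoxin reductase gene TXNRD1 rose by 0.25 to 0.55, and the aldo-keto reductase genes AKR1C1 and AKR1C2, which are near-identical so that the counting may divide their reads, by 0.35 to 0.62 and by 0.44 to 0.77. All of these passed with the order term except AKR1C2 under Okbyeongpung-san (0.38, adjusted p = 0.121).

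Set beside these, Saposhnikoviae Radix at the high dose had 12 of 30 listed targets higher and none of the 9 members. There 0.293% of all genes tested were higher, and 0 of 9 is close to that share. BACH1 had the largest change of the members, 0.28 ± 0.08, with every library above vehicle. It did not pass (edgeR, adjusted p = 0.123) but did with the order term. NFE2L2 had a change of 0.01 ± 0.04 there, KEAP1 one of 0.11 ± 0.05 and SQSTM1 one of 0.04 ± 0.04. Between the high and low doses the number of targets higher was 22 for Menthae Herba (1.13% of all genes were), 10 for Guibi-tang (0.211%), 5 for Soyo-san (0.0880%), 2 for Saengmaek-san (0.0117%), 2 for Saposhnikoviae Radix (0.0293%) and 0 for Okbyeongpung-san (0.00587%). The extracts in which SQSTM1 also passed were the first 2 of these.

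Of 22 further NRF2 regulators 20 were tested. At the high dose 1 was higher and 1 lower under Menthae Herba (4.59% of all genes were higher and 3.98% lower), 1 lower under Saengmaek-san (1.89% lower) and 2 higher and 2 lower under Soyo-san (8.03% higher and 6.43% lower), with 0 elsewhere. Under Menthae Herba and Soyo-san 1 or 2 of 20 is close to the share of all genes. With the order term 2 were higher and 2 lower under Menthae Herba, 1 and 1 under Saengmaek-san, 2 and 0 under Soyo-san, and 1 was higher under each of the other 3 extracts. Shares of all genes in each comparison are not given for that term, here or for the next list. CREBBP, a coactivator that acetylates NRF2, was lower under Saengmaek-san (-0.24 ± 0.06, adjusted p = 0.00827) and Soyo-san (-0.20 ± 0.06, adjusted p = 0.011), and its relative EP300 under Soyo-san (-0.21 ± 0.06, adjusted p = 0.0115). CREBBP remained lower with the order term under Saengmaek-san (-0.22, adjusted p = 0.00751), while under Soyo-san neither CREBBP (-0.12, adjusted p = 0.211) nor EP300 (-0.12, adjusted p = 0.232) passed. CAND1, which exchanges the adaptors of cullin ligases, was higher under Menthae Herba (0.18 ± 0.05, adjusted p = 0.0126), and with the order term also under Saengmaek-san, Soyo-san, Okbyeongpung-san and Saposhnikoviae Radix (0.17 to 0.20). The scaffold gene CUL1 (0.14, adjusted p = 0.0398) and PALB2 (0.20, adjusted p = 0.0449), whose product binds KEAP1, were higher under Soyo-san, and neither passed with the order term (adjusted p = 0.761 and 0.585). Of the 10 genes of NRF1 processing, RAD23B under Soyo-san was the one that passed at the high dose (0.12 ± 0.04, adjusted p = 0.0321). There 8.03% of all genes were higher, and 1 of 10 is close to that share. RAD23B did not pass with the order term (0.07, adjusted p = 0.334). With that term 1 of the 10 was higher under each of Menthae Herba, Saposhnikoviae Radix and Okbyeongpung-san and 2 under Soyo-san.

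The 31 proteasome subunit genes, known targets of NRF1, were higher in 13 cases under Soyo-san at the high dose (8.03% of all genes were), 6 under Menthae Herba (4.59%), 3 under Okbyeongpung-san (4.36%), 2 under Saengmaek-san (2.39%), 1 under Guibi-tang (1.28%) and 0 under Saposhnikoviae Radix (0.293%), while NFE2L1 itself passed in none. With the order term these counts became 9, 11, 0, 4, 1 and 0. For that term the share of all genes is given only pooled over the 18 comparisons (1.60% higher). Whether these counts moved with those of all genes therefore cannot be read here. PSMC3, an ATPase of the base, rose by 0.41 ± 0.06 under Soyo-san, 0.30 ± 0.06 under Okbyeongpung-san and 0.20 ± 0.06 under Guibi-tang. The lid subunits PSMD12 and PSMD14 rose under Menthae Herba (0.20 and 0.21), Soyo-san (0.21 and 0.17) and Saengmaek-san (0.20 and 0.17). PSMC4 (0.26 and 0.21) and PSMD3 (0.21 and 0.12) rose under Soyo-san and Okbyeongpung-san. PSMC3 had, with the order term, 0.24 under Soyo-san (adjusted p = 7.12e-04) and 0.13 under Okbyeongpung-san (adjusted p = 0.152), PSMC4 did not pass under Soyo-san (0.11, adjusted p = 0.169), and none of the list passed under Okbyeongpung-san.

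Of 13 other autophagy receptors and partners, 1 was lower under Menthae Herba at the high dose (3.98% of all genes were lower). Under Soyo-san at that dose 1 was higher and 1 lower (8.03% and 6.43% of all genes), close to the share of all genes. Under Okbyeongpung-san 2 were higher (4.36%), with 0 under the other 3 extracts. GABARAP, a ubiquitin-like protein of autophagosome membranes, was lower under Menthae Herba (-0.19 ± 0.06, adjusted p = 0.0206) and Soyo-san (-0.23 ± 0.06, adjusted p = 0.00506). The receptor TAX1BP1 was higher under Soyo-san (0.20, adjusted p = 0.0174) and Okbyeongpung-san (0.24, adjusted p = 0.00887), and OPTN under Okbyeongpung-san (0.34, adjusted p = 0.0171). None of these 3 higher calls held with the order term: TAX1BP1 had 0.01 under Soyo-san (adjusted p = 0.94) and 0.05 under Okbyeongpung-san (adjusted p = 0.653), and OPTN had 0.03 (adjusted p = 0.879). GABARAP remained lower under both extracts with the term (-0.19 and -0.32) and was also lower under Okbyeongpung-san (-0.24, adjusted p = 0.0192). None of the 13 passed under Guibi-tang at the high dose, where SQSTM1 had its largest change. There 1.28% of all genes were higher and 0.974% lower, so 0 of 13 is close to the share of all genes.

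Soshiho-tang, with 1 library per dose, gave values and no test. Its high-dose library was the highest of all 60 for NFE2L2, NFE2L1, KEAP1, MAFK and CUL3, and it also lay farthest to the later side of the first principal component. The share of all genes that were highest in that library was not counted. NFE2L2 stood at 147.5 CPM (exact Poisson 95% interval 142.6 to 152.6, for counting error only), 1.24 times the vehicle mean and above the 130.8 CPM of the highest library of the other groups. At the medium dose it was 133.6 CPM, also above all 57, and at the low dose 122.1 CPM, inside the vehicle range.

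In the same high-dose Soshiho-tang library SQSTM1 measured 485.9 CPM (476.8 to 495.1), 1.46 times the vehicle mean, with 2 of the other 57 libraries above it, both of Guibi-tang at the high dose. Its medium and low doses were at 367.7 and 360.9 CPM. KEAP1 measured 73.61, 65.54 and 64.07 CPM at the high, medium and low doses, NFE2L1 326.5, 296.2 and 275.0, and CUL3 123.7, 114.7 and 111.5, each in descending order with dose and above the vehicle range at all 3 doses. BACH1 (42.29, 39.91 and 42.60 CPM) was above vehicle at each dose with no order by dose, and MAFG went from 98.13 to 76.13 CPM, above the vehicle range at the high dose and below it at the medium and low doses.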

How the data were processed

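RNA libraries of HT29 cells were made with a strand-marking kit, per the labels' protocols. The deposited values are expected counts per gene from RSEM 1.3.3. The submitters' processing notes also name STAR 2.7.3a, Trim Galore 0.6.5 and FastQC 0.11.9 and the build GRCh38. Neither an annotation release nor a strand setting is given in the sources used here. Of the expected counts above 0, 27.7% were not whole, and all were rounded before testing. RSEM divides reads that match several genes between them, so near-identical genes depend on that division.

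The 57 libraries of 19 groups entered 1 fit with edgeR 4.0.16 in R 4.3.3: TMM scaling, the filter filterByExpr (17049 of 60675 identifiers, 99.95% of counts), a robust quasi-likelihood model of the group means with 38 residual degrees of freedom, and Benjamini-Hochberg adjustment over all tested genes in each of 29 comparisons (18 against vehicle, 6 high against low dose, 5 between extracts), with a threshold of 0.05. Every adjusted p in the text is from this fit unless another setting is named beside it. The biological coefficient of variation was 0.0524 over all genes. Replicate pairs differed by 1.85 to 24.3 times sampling noise, so none was counted as 1 library. Levels are CPM after TMM scaling, and lengths are those of all exons of a gene joined, in GENCODE release 29. Likeness of pattern is Pearson's r over the 19 group means among genes of at least 5 CPM. The intervals of single libraries cover counting error only. The fitting script was tested on simulated data.

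The members and lists were chosen with earlier results of these data known. The text names every member and, of each list, up to 5 genes called at most high doses. As alternatives, the order term or the replicate number as a block was added, each library was left out in turn, the earlier-numbered libraries or only the 2 groups compared were fitted, the filter was dropped, and size factors or the test of DESeq2 1.42.0 were used. Pairing was checked by correlating the deviations of same-numbered libraries from their group means. Of the 29 comparisons, high-dose Guibi-tang against high-dose Saengmaek-san was the 1 with every correlation above 0.1 (0.144, 0.129 and 0.286). Soshiho-tang, with 3 single libraries, entered no test, and 0 columns were left unused.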

Additional observations from a re-analysis of the deposited data

Results flagged for a closer look

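In 4 instances a member differed between extracts at the high dose by a direct test (edgeR's quasi-likelihood test with Benjamini-Hochberg adjustment over 17049 genes). SQSTM1 differed by 0.413 on the log2 scale between Guibi-tang and Saengmaek-san (adjusted p = 2.6e-11), by 0.216 between Menthae Herba and Saposhnikoviae Radix (adjusted p = 4.37e-04) and by 0.144 between Okbyeongpung-san and Saposhnikoviae Radix (adjusted p = 0.0258), higher in the extract named first each time and in 3 of 3 of its libraries. MAFG differed by -0.268 between Soyo-san and Menthae Herba (adjusted p = 0.00858), lower under Soyo-san in 3 of 3 libraries. For the last 2, where all libraries of one extract are later-numbered and all of the other earlier-numbered, treatment and library order cannot be told apart without the order term, with which neither passed. No group had enough libraries for a check of single outlying samples, since each held 3.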

How the results depend on the processing

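Of the 36 calls of a member over 29 comparisons, 0 changed sign under any setting. DESeq2's test and the replicate block kept all 36 and the earlier-numbered libraries alone all 13 that could be fitted, while DESeq2's size factors kept 33, the order term 27, a fit of the 2 groups alone 26 and dropping the filter on low counts 27. Without each library in turn, 18 kept their call and 18 lost it for at least 1 library. The cause of the changes below was not tested.

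In the comparisons with vehicle, the number of members called moved by more than 1.5 times, or from or to 0, as follows. Smaller moves, such as Soyo-san high from 5 to 4 with the order term and Menthae Herba high from 5 to 4 and Guibi-tang high from 4 to 3 with DESeq2's size factors, are left out. With DESeq2's size factors Saengmaek-san high went from 1 to 0. By DESeq2's test Saengmaek-san high had 3 and medium 1. With the replicate block Saengmaek-san high had 2 and medium 1, and Soyo-san had 5 at the medium and 4 at the low dose, in place of 3 and 2. In the earlier-numbered libraries Menthae Herba medium and Saengmaek-san medium had 1 each in place of 0. With no filter Guibi-tang had 2 at the high dose (in place of 4) and 1 at the low dose, and Menthae Herba medium and low, Saengmaek-san medium and Saposhnikoviae Radix at each dose had 1 in place of 0. In fits of the 2 groups alone Guibi-tang had 1, 0 and 0 at the high, medium and low doses, Okbyeongpung-san medium 0, Saengmaek-san high 0, Menthae Herba medium 1, and Soyo-san medium and low 5 and 4. With the order term Guibi-tang medium had 0, Okbyeongpung-san medium 1, and Saengmaek-san medium and Saposhnikoviae Radix high 1 each in place of 0.

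Between doses, Guibi-tang high against low had 0 in the fit of the 2 groups alone and Menthae Herba 2 in the earlier-numbered libraries, each in place of 1. Between extracts, the replicate block gave 2 for Guibi-tang against Saengmaek-san and 2 for Okbyeongpung-san against Saposhnikoviae Radix. No filter gave 2 for the first of these, DESeq2's test and the fit of the 2 groups alone gave 2 for the second, and the fit of the 2 groups alone gave 2 for Menthae Herba against Saposhnikoviae Radix. The order term left 0 for Okbyeongpung-san against Saposhnikoviae Radix and 0 for Soyo-san against Menthae Herba. In the correlation check every same-numbered pair deviated together for Guibi-tang against Saengmaek-san alone. There replicates 1 and 2 of both groups were earlier-numbered and replicate 3 later-numbered. Pairing by replicate number and library order therefore cannot be told apart.

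Leaving out 1 library gave 2 to 5 members for Menthae Herba high, 1 to 2 for Guibi-tang high, 0 to 2 for its medium and low doses, 3 to 4 for Soyo-san high (5 with all libraries), 0 to 3 for Okbyeongpung-san medium, 0 to 1 for Saengmaek-san high, 1 to 2 for Guibi-tang against Saengmaek-san, 0 to 2 for Okbyeongpung-san against Saposhnikoviae Radix and 0 to 1 for Soyo-san against Menthae Herba. The 18 calls that a single library ended were all 5 of BACH1, 4 of 10 of KEAP1, 2 of 9 of SQSTM1, 2 of 3 of MAFK, both of CUL3 and the 1 of MAFG against vehicle, and 2 between extracts. MAFF, at 12.28 to 19.07 CPM, was the member with the fewest counts.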
